A study of Mus musculus with 2 samples.

Results

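The genes described here are 10 genes of melanin synthesis and of the melanosome, the organelle in which pigment cells make and store melanin: Tyr, Tyrp1, Dct, Pmel, Mlana, Slc45a2, Oca2, Slc24a5, Gpr143 and Mitf. They were chosen by name, and all 10 were found among the 23356 gene symbols of the deposited transcript table. RNA came from dissected mouse retinas at postnatal day 15, with 1 triple mutant library and 1 control library. The triple mutant was flox/flox, with both copies flanked by loxP sites, for Dnmt1, Dnmt3a and Dnmt3b, which encode the DNA methyltransferases, and was positive for Rx-Cre, a Cre recombinase transgene driven by regulatory sequence of the eye-field gene Rx. The control carried the same floxed alleles and was negative for Rx-Cre. The eye field gives rise to both the neural retina and the pigment epithelium, and the labels do not say in which of these layers Cre acted. The strain label reads C57BL/7 for the mutant and C57BL/6 for the control, and the labels do not say how many animals each library holds. With 1 library per genotype, what follows compares 1 pair of libraries, with no replicate check and no test between genotypes.

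Melanin in the eye is made in the retinal pigment epithelium, a single cell layer behind the photoreceptors. It is also made in the pigmented epithelia of the iris and ciliary body, and in melanocytes of the choroid, iris and ciliary body. The neural retina itself makes none. Tyrosinase, the product of Tyr, oxidises tyrosine in the first and rate-limiting step, and the related enzymes of Tyrp1 and Dct act on later intermediates. Pmel forms the fibrils on which melanin is laid down, membrane transporters set the ion balance and pH of the melanosome, and the transcription factor Mitf binds the promoters of many of these genes.

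Promoter windows in RefSeq's GRCm38.p6 table, from 250 bases before to 50 bases after each transcript start, were matched for 6 of the 10 genes (8 windows, 3 of them for Mitf). Those of the 3 enzyme genes are shown because these genes held 3 of the 4 log2 ratios of -1 or lower given below and because MITF is known to bind the motif they share. Capitals mark the 6-base motif CATGTG, or CACATG where it lies on the other strand.
Tyr (chr7:87493463-87493762, minus strand): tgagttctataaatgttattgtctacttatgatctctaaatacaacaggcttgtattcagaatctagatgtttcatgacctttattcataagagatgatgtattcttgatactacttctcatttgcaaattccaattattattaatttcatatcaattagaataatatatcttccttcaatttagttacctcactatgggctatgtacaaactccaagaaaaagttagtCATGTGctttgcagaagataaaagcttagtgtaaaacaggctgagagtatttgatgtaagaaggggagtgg
Tyrp1 (chr4:80833963-80834262, plus strand): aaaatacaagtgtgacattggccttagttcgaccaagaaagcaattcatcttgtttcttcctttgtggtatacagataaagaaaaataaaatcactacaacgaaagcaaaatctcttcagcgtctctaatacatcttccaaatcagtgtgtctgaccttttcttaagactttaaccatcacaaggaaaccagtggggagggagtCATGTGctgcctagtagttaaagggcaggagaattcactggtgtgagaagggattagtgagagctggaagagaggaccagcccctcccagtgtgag
Dct (chr14:118052197-118052496, minus strand): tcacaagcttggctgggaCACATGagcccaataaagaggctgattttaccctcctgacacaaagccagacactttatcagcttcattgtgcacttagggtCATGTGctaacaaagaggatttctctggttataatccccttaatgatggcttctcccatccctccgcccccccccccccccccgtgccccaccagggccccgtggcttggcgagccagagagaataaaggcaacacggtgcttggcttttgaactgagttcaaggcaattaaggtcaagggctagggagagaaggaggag
The motif CATGTG was searched on both strands and occurred in the windows of Tyr, Tyrp1, Dct, Oca2 and Slc24a5, 5 of the 6 genes with a window. Counted by window, it occurred in 5 of the 8 windows, and in 14.2% of all 32851 windows. A longer form, the 9-base core TCATGTGCT of the element known as the M-box, contains that motif and was chosen after the sequences were seen. It occurred in the windows of Tyr, Tyrp1 and Dct and in 0.408% of all windows. Because of that choice, its presence in these windows is not a test of enrichment. The starts used for these windows lie upstream of the starts of the transcripts measured below. They are 87493512 against 87493411 for Tyr, 80834213 against 80834230 for Tyrp1 and 118052246 against 118052185 for Dct. The 9-base core is shown in capitals here with the 2 bases before it.
Tyr, bases -24 to -14 from the start: agTCATGTGCT
Tyrp1, bases -49 to -39 from the start: agTCATGTGCT
Dct, bases -153 to -143 from the start: ggTCATGTGCT
The E-box CACGTG, which reads the same on both strands, occurred in 0 of the 8 windows and in 7.15% of all windows. The motif TAATCC, bound by OTX factors and searched on both strands, occurred in the windows of Dct, Tyrp1 and the middle Mitf start, and in 7.06% of all windows. The windows of Tyr, Oca2 and Tyrp1 held 0, 2 and 3 CpG dinucleotides, those of Dct and Slc24a5 held 5 and 6, and the 3 Mitf starts held 22, 5 and 8, where the median over all windows was 7. CpG dinucleotides are where DNA methyltransferases act, and methylation itself was not measured here.

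**Figure D1:**
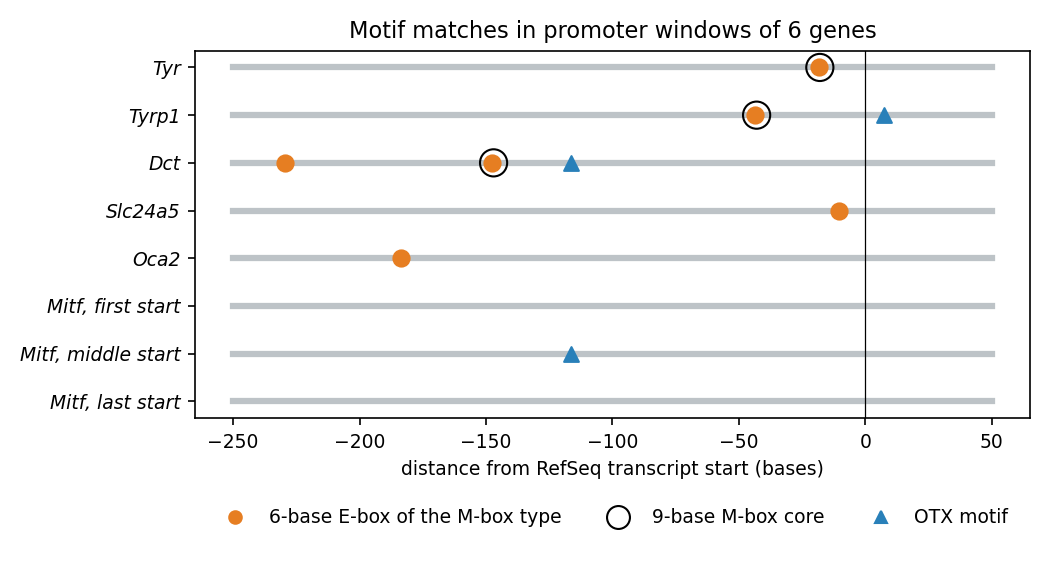
Motif matches in the promoter windows of 6 genes, by distance in bases from the RefSeq transcript start (x axis). The 9-base M-box core lies before the start in Tyr, Tyrp1 and Dct, and the shorter motif also lies in the windows of Slc24a5 and Oca2.

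The targeted genes Dnmt1, Dnmt3a and Dnmt3b stood at 53.5%, 64.1% and 80.4% of the control in the triple mutant library. Their log2 ratios after adding 1 FPKM were -0.85, -0.63 and -0.15. The quartiles over all genes with at least 1 FPKM in either library were -0.16 and 0.15, so Dnmt3b lay between them. The authors' table gave no transcript of the 3 genes a significant call, so these values are a weak check of the labels. Values are FPKM, fragments per kilobase of transcript scaled to sequencing depth, as Cuffdiff estimated them for the authors. By the steps between the lowest values, 1 FPKM over 2 kb of transcript stood for about 114 fragments in the triple mutant library and 97.1 in the control library. The range given in brackets after a percentage is its 95% interval for counting error alone.

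Transcripts of the 3 melanin-forming enzymes of the tyrosinase family were all lower in the triple mutant library. Dct encodes dopachrome tautomerase, which converts dopachrome to DHICA, and was the most abundant of the 10 genes in the control. Dct (transcript NM_010024, chromosome 14, 118012790 to 118052185, 8 exons, GRCm38) had 1.48 FPKM in the triple mutant, against 19.6 FPKM in the control, 7.54% of the control (6.43 to 8.82). This rested on about 173 fragments in the triple mutant and 1952 in the control. Tyrp1, whose product acts next to Dct in eumelanin synthesis, had 0.861 FPKM in the triple mutant, against 4.36 FPKM in the control, 19.7% of the control (16.1 to 24.0). Tyrp1 lies on chromosome 4 (80834230 to 80851718, 8 exons). Tyr, for tyrosinase itself, had 0.0392 FPKM in the triple mutant, against 1.09 FPKM in the control, 3.61% of the control (1.41 to 7.52). Tyr (chromosome 7, 87427405 to 87493411) had the lowest percentage of the 10 genes, and its level in the triple mutant came from about 7 fragments, against 167 in the control. The enzyme genes summed to 2.38 FPKM in the triple mutant and 25.05 FPKM in the control, 9.49% of the control. In the second deposited table, which lists 3 Tyrp1 transcripts in place of 1, the main form NM_031202 had 0.860 FPKM in the triple mutant and 2.29 FPKM in the control. The other Tyrp1 forms, NM_001282014 and NM_001282015, had 0.000175 and 0.000848 FPKM in the triple mutant, against 1.06 and 0.968 FPKM in the control. The sum over the 3 forms was 19.96% of the control, beside 19.7% in the first table, and the forms overlap in sequence, so their split is an estimate.

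Transcripts of both proteins of the early melanosome were also lower in the triple mutant library. Pmel encodes the amyloid-forming protein of the melanosome fibrils. Pmel (NM_021882, chromosome 10, 128706258 to 128720238, 11 exons) had 0.520 FPKM in the triple mutant, against 11.6 FPKM in the control, 4.47% of the control (3.40 to 5.85). Of its exon bases, 4.93% overlap exons of Dgka on the other strand, which had 2.01 FPKM in the triple mutant and 2.49 FPKM in the control. Mlana encodes MART-1, a small membrane protein that binds Pmel and aids its processing. Mlana (chromosome 19, 29697941 to 29708306) had 0.420 FPKM in the triple mutant, against 1.24 FPKM in the control, 33.9% of the control (11.2 to 78.0), on about 7 fragments in the triple mutant and 19 in the control. Dct and Pmel together made up 31.4% of the summed FPKM of the 10 genes in the triple mutant, against 70.3% in the control.

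**Figure D2:**
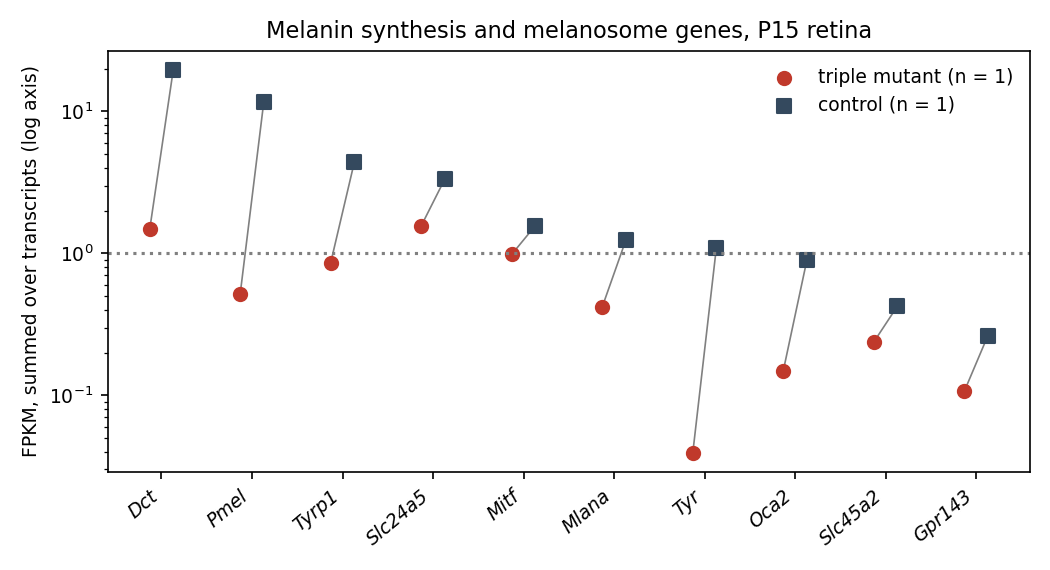
FPKM of the 10 genes in the triple mutant library (circles) and the control library (squares), 1 library each, on a log axis, ordered by the control level; the dotted line marks 1 FPKM. Every gene lies lower in the triple mutant, from Dct (1.48 against 19.6 FPKM) to Gpr143 (0.107 against 0.263 FPKM).

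The 3 melanosome transporter genes were lower in the triple mutant by unequal amounts, and Oca2 and Slc45a2 were below 1 FPKM in both libraries. Oca2, the pink-eyed dilution gene, encodes a membrane protein needed for chloride flux and pH balance of the melanosome. Oca2 (chromosome 7, 56239771 to 56536517, 24 exons) had 0.149 FPKM in the triple mutant, against 0.891 FPKM in the control, 16.7% of the control (10.3 to 25.5). Slc45a2, a sugar and proton transporter that affects melanosome pH, lies on chromosome 15 (11000721 to 11029233) and had 0.237 FPKM in the triple mutant, against 0.424 FPKM in the control, 56.0% of the control (36.1 to 85.5). The intervals of Oca2 and Slc45a2 do not overlap, which compares the fragments of these libraries and not the genotypes. Slc24a5 encodes the sodium, potassium and calcium exchanger NCKX5, which is known for its effect on skin colour in people. Slc24a5 (chromosome 2, 125068127 to 125088677, 9 exons) had 1.56 FPKM in the triple mutant, against 3.33 FPKM in the control, 46.9% of the control (38.4 to 57.0). It was the most abundant of the 10 genes in the triple mutant. Of its exon bases, 47.2% overlap exons of Myef2 on the other strand, and Myef2 was much more abundant, with 25.6 FPKM in the triple mutant and 22.9 FPKM in the control. No label or header says that strand was used in counting, and without it fragments from the overlapping exons of Slc24a5 and Myef2 cannot be told apart.

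The pigment cell receptor gene Gpr143, or Oa1, whose loss causes ocular albinism, was close to the counting limit. Gpr143 (chromosome X, 152781986 to 152808646) had 0.107 FPKM in the triple mutant, against 0.263 FPKM in the control, 40.6% of the control (16.9 to 99.9), on about 9 fragments in the triple mutant and 18 in the control.

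Mitf, the transcription factor gene, had the smallest relative difference of the 10. Its 3 transcripts summed to 0.984 FPKM in the triple mutant, against 1.57 FPKM in the control, 62.8% of the control. The transcripts start at different promoters on chromosome 6 and share their downstream exons, so their separate levels are estimates by Cuffdiff and their intervals are too narrow. The form from the first start, NM_001113198 (start at 97807058), had 0.894 FPKM in the triple mutant, against 1.24 FPKM in the control, 72.4% of the control (60.6 to 86.1). The form from the last start, NM_008601 (start at 97991792), had 0.0573 FPKM in the triple mutant, against 0.266 FPKM in the control, 21.5% of the control (7.4 to 56.1), on about 6 fragments in the triple mutant and 23 in the control. In mouse this last start is known as M and is used mainly in melanocytes. The form from the middle start, NM_001178049, had 0.0321 FPKM in the triple mutant and 0.0637 FPKM in the control, and the authors' table marks it as not tested. The first-start form thus made up 90.9% of Mitf in the triple mutant and 78.9% in the control, and the last-start form 5.83% in the triple mutant and 17.0% in the control.

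**Figure D3:**
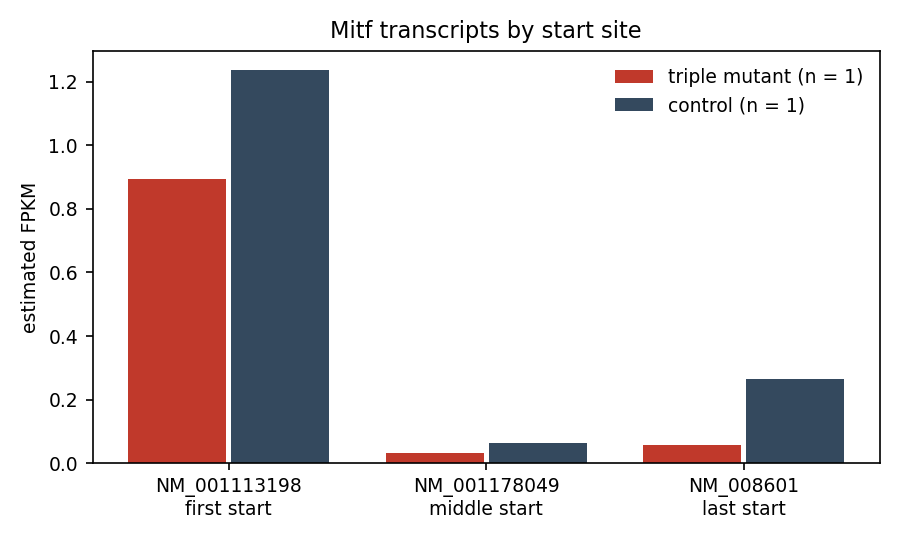
Estimated FPKM (y axis) of the 3 Mitf transcripts, ordered by start site, in the triple mutant and control libraries, 1 library each. The first-start form carries most of the level in both libraries, and the last-start form stands at 0.0573 FPKM in the triple mutant and 0.266 FPKM in the control.

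All 10 genes were lower in the triple mutant, where 49.7% of the 15318 genes with a usable estimate were lower. The 10 genes summed to 6.36 FPKM in the triple mutant and 44.4 FPKM in the control, 14.3% of the control, and the median over the 10 genes was 26.8%, beside a median of 100.1% over all usable genes. Of the 10 genes, 8 were at or below 50% of the control, and Slc45a2 and Mitf lay above it; 2.47% of all usable genes were at or below 50%. On the log2 scale after adding 1 FPKM, which understates the difference of low genes, a ratio of -1 or lower was used as the size rule for genes with at least 1 FPKM in either library. Slc45a2, Oca2 and Gpr143 did not reach 1 FPKM in either library. Of the other 7, Dct and Slc24a5 reached it in both libraries and 5 in the control alone. By that rule Dct (-3.06), Pmel (-3.05), Tyrp1 (-1.53) and Tyr (-1.01) were lower and 0 genes were higher, where 0.648% of 13280 measured genes were lower and 1.84% were higher. Tyr lay just inside the rule, and Slc24a5 (-0.76) was the nearest gene outside it, followed by Mlana (-0.66) and Mitf (-0.37). From the lowest log2 ratio among all measured genes, Dct ranked 14, Pmel 15, Tyrp1 31 and Tyr 84.

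**Figure D4:**
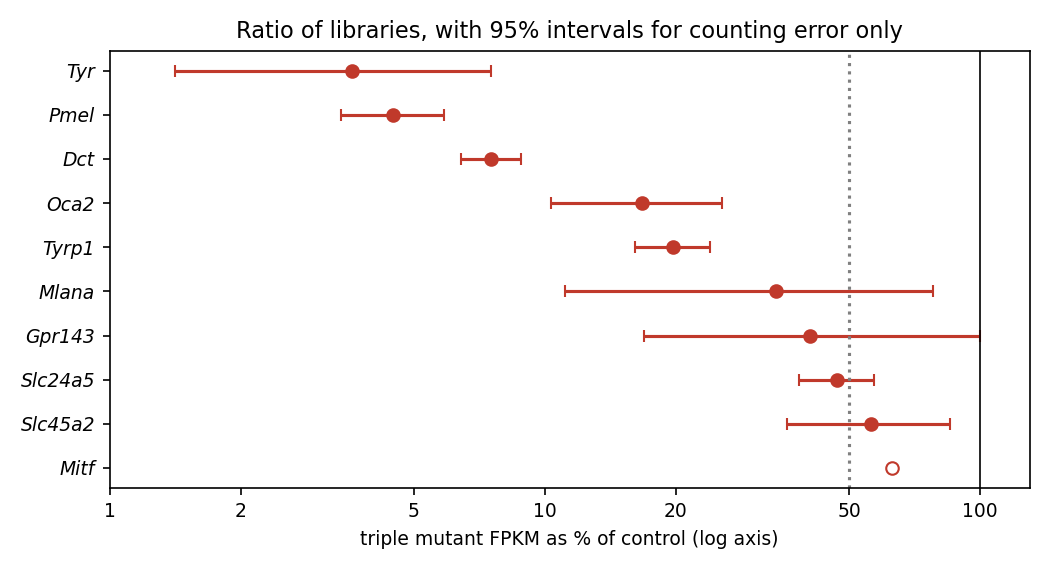
Triple mutant FPKM as a percentage of the control (x axis, log scale) for each gene, with 95% intervals for counting error only; the open point for Mitf has no interval because it sums 3 transcripts, the dotted line marks 50% and the solid line 100%. Tyr, Pmel and Dct lie between 3.61% and 7.54%, and Slc45a2 and Mitf lie above 50%.

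The authors' deposited table gave a significant call to 1 of the 10 genes, Dct, with a q-value of 0.0184. In the authors' deposited table the next lowest q-values were those of Tyrp1 (0.414), Pmel (0.764) and Oca2 (0.842). That Cuffdiff comparison had no replicates either, and it called 12 transcripts lower in the mutant among 19556 with a test, which is 0.0614%.

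The wider machinery of melanosomes is in large part shared with lysosomes and other organelles of most cells, and its lists had medians near 0. Of 22 measured genes of the BLOC, HPS, AP-3 and HOPS complexes, which sort cargo to melanosomes, and of Lyst, 0 passed the size rule in either direction, where 0.648% of all measured genes were lower and 1.84% were higher, and the median log2 ratio was -0.01. With so low a background, 0 calls in lists of this length say little about them. The ratio farthest from 0 was that of Hps1, a BLOC-3 subunit gene, with 2.98 FPKM in the triple mutant and 2.02 FPKM in the control. Of 11 measured genes of melanosome transport, 0 passed the rule in either direction, with a median of 0.01. The most negative were Myrip, which links Rab27a to Myo7a on melanosomes of the pigment epithelium, with 10.5 FPKM in the triple mutant and 19.5 FPKM in the control, and Rab27b, with 2.31 FPKM in the triple mutant and 4.49 FPKM in the control. Their log2 ratios, -0.84 for Myrip and -0.73 for Rab27b, lay below the central 95% of all measured genes, which began at -0.63. Sytl2 had 2.34 FPKM in the triple mutant and 4.07 FPKM in the control, and the motor gene Myo5a had 20.2 FPKM in the triple mutant and 30.2 FPKM in the control.

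Of 14 other melanosome membrane and pigment genes, 0 were lower and 1 passed the size rule upwards, and the median log2 ratio was 0.10. The higher gene was Slc7a11, the cystine transporter subunit that steers synthesis towards pheomelanin, with 5.83 FPKM in the triple mutant and 2.20 FPKM in the control. Its partner subunit gene Slc3a2 had 83.3 FPKM in the triple mutant and 58.1 FPKM in the control. Gpnmb, a relative of Pmel, had 1.21 FPKM in the triple mutant and 2.12 FPKM in the control, and the zinc transporter gene Tmem163 had 9.14 FPKM in the triple mutant and 14.02 FPKM in the control. Among 18 measured regulators of pigment genes, 0 were lower and 1 was higher, and the median was 0.22. The higher one was the endothelin receptor gene Ednrb, with 6.48 FPKM in the triple mutant and 2.07 FPKM in the control. Over all measured genes, 0.648% were lower and 1.84% were higher, so counts this small say little about either list. The Wnt effector gene Lef1 had 3.28 FPKM in the triple mutant and 1.42 FPKM in the control. Kitl, for the ligand of the Kit receptor, had 3.39 FPKM in the triple mutant and 5.47 FPKM in the control. Several of these genes are also used by neurons and glia of the retina.

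**Figure D5:**
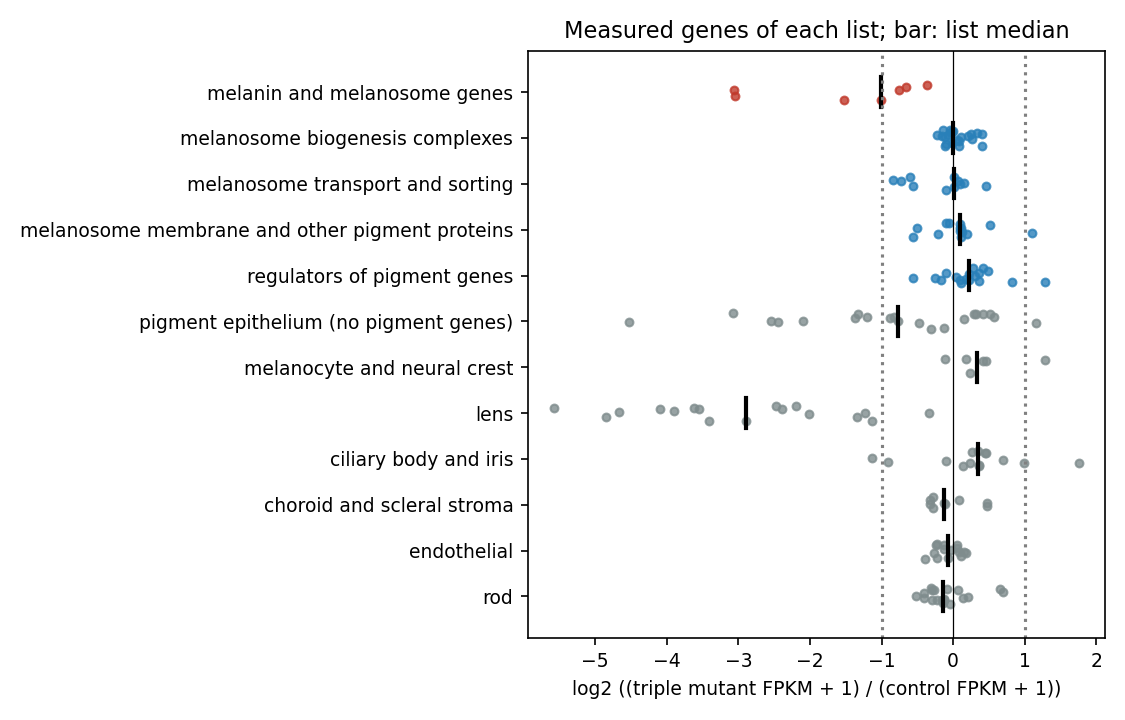
Log2 ratio of triple mutant to control after adding 1 FPKM (x axis) for each measured gene of the melanin genes and of 11 other lists; bars are list medians and dotted lines the size rule. The melanin genes (median -1.01), pigment epithelium markers (-0.78) and lens markers (-2.90) have the lowest medians, and the lists of melanosome machinery centre near 0.

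Markers of the pigment epithelium, next to the dissected retina, went both ways, with 16 of 25 lower by any amount, beside 49.7% of all usable genes. Of 21 measured pigment epithelium markers that are not pigment genes, 8 were lower by the size rule and 1 was higher. Over all measured genes, 0.648% were lower and 1.84% were higher. The higher marker was Rdh10, with 95.8 FPKM in the triple mutant and 42.5 FPKM in the control. The median log2 ratio was -0.78, or -0.47 with no filter on low values. Of the 25 on that list, 13 stood at or below 50% of the control, beside 2.47% of all usable genes. Rpe65, the retinoid isomerase of the pigment epithelium, had 0.126 FPKM in the triple mutant and 5.16 FPKM in the control, which is 2.44% of the control. Slc16a8, the lactate transporter of its basal membrane, had 0.726 FPKM in the triple mutant and 6.37 FPKM in the control (11.4%). Lrat, for the enzyme that esterifies retinol, had 0.204 FPKM in the triple mutant and 2.03 FPKM in the control (10.05%). Ttr stood at 3.14%, Rgr at 7.19%, Rdh5 at 9.14%, Stra6 at 32.8% and Kcnj13 at 37.2% of the control. Of 10 defining markers of the pigment epithelium, 4 reached 1 FPKM in the triple mutant and 9 in the control, 0 were at 0, and they summed to 24.9 FPKM in the triple mutant and 142 FPKM in the control (17.5%). Ttr alone gave 2.49 FPKM of that sum in the triple mutant and 79.1 FPKM in the control. The whole list of 25 summed to 602 FPKM in the triple mutant and 639 FPKM in the control (94.1%), and Rlbp1, which Müller glia also express, made up much of it, with 343 FPKM in the triple mutant and 309 FPKM in the control. The remaining defining markers had higher values in the triple mutant: Rrh had 16.4 FPKM in the triple mutant and 13.003 FPKM in the control, and Best1 had 0.211 FPKM in the triple mutant and 0.139 FPKM in the control. The 10 defining markers thus ran from 2.44% to 151% of the control, where the 10 melanin genes ran from 3.61% to 62.8%. The 151% was that of Best1, which stayed below 1 FPKM in both libraries, and Rrh stood at 126%. Of the 10 defining markers, 8 were at or below 50% of the control. On the same list, Slc6a20a stood at 1.25%, Krt8 at 17.1%, Slc26a7 at 20.8%, Clic6 at 26.3% and Ermn at 28.5% of the control. Krt8, Ermn, Best1 and Cdh1 did not reach 1 FPKM in either library. Serpinf1 (160%), Cldn10 (146%), Mertk and Krt18 (both 145%), Rlbp1 (111%) and Cdh1 (103%), also on that list, stood above the control. In bulk tissue, fewer cells of a type and less RNA per cell cannot be told apart, and the part of the pigment epithelium content of each sample in these values was not tested.

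Among 6 measured melanocyte and neural crest markers, 0 were lower by the size rule and 1 was higher (Ednrb, above), and the median log2 ratio was 0.33. Over all measured genes, 0.648% were lower and 1.84% were higher, so counts among 6 genes say little. Of 6 defining markers, 3 reached 1 FPKM in both libraries and 3 were at or near 0. Sox10 had 0.145 FPKM in the triple mutant and 0.266 FPKM in the control, Pax3 had 0.0164 FPKM in the triple mutant and was listed at 0 in the control, and Foxd3 was listed at 0 in both. Kit, which other retinal cells also express, had 4.16 FPKM in the triple mutant and 2.86 FPKM in the control, and the melanocortin receptor gene Mc1r had 3.10 FPKM in the triple mutant and 2.62 FPKM in the control. The 6 defining markers summed to 13.9 FPKM in the triple mutant and 7.82 FPKM in the control. Ednrb alone gave 6.48 FPKM of that sum in the triple mutant and 2.07 FPKM in the control, and Sox10 stood at 54.4% of the control.

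Of 17 measured lens markers, 16 were lower by the size rule and 0 higher, where 0.648% of all measured genes were lower and 1.84% were higher. Their median log2 ratio was -2.90, or -2.43 with no filter on low values, and most of the 17 reached 1 FPKM in the control alone. The crystallin genes Cryaa, Cryba1, Crygs and Crybb2 stood at 0.344%, 0.429%, 0.550% and 0.733% of the control. The 7 defining lens markers summed to 1.63 FPKM in the triple mutant and 137 FPKM in the control, with Lim2 listed at 0 in the triple mutant. Genes of the ciliary body and iris, which also hold pigment cells, had 1 of 14 lower, Aqp1 (13.1 FPKM in the triple mutant and 30.04 FPKM in the control), 1 higher, Cyp26a1 (8.87 FPKM in the triple mutant and 1.93 FPKM in the control), and a median of 0.35. Their 4 defining markers summed to 17.8 FPKM in the triple mutant and 14.5 FPKM in the control. Of 9 measured markers of choroid and sclera, 15 of endothelium and 19 of rods, 0 passed the rule, with medians of -0.12, -0.08 and -0.15. Beside the low shares over all measured genes given above, 0 calls in lists of this length say little about them. Lum, a defining marker of stroma, was listed at 0 in both libraries.

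The genes whose log2 ratio lay nearest the median of the 7 measured melanin genes (-1.01) were Fndc1, Spry3, Gnat2, Calb1 and Car12. With only 2 libraries this likeness is a single ratio and describes its size alone. Fndc1 had 1.52 FPKM in the triple mutant and 4.05 FPKM in the control, and Car12 had 0.173 FPKM in the triple mutant and 1.37 FPKM in the control. The cone transducin gene Gnat2 had 35.2 FPKM in the triple mutant and 72.1 FPKM in the control.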

How the data were processed

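RNA was isolated from dissected retinas and sequenced as 1 triple mutant and 1 control library, per the labels' protocols. The authors aligned reads to mm10 with TopHat2 2.0.8 and ran Cuffdiff 2.1.1, per the submitters' processing notes. The deposited tables hold FPKM per RefSeq transcript, log2 fold changes, p-values, q-values and test scores, per the file headers. Annotation, read layout and strand use are not stated there.

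FPKM was summed over the transcripts of each gene in the table that names genes (30608 rows). A gene was usable with at least 1 transcript of status OK and none failed or of excessive data (15318 genes), and measured at 1 FPKM or more in either library. Log2 ratios are triple mutant over control after adding 1 FPKM to each. No p-value was computed. The second table (33362 rows) was joined by transcript identifier, and 32828 rows matched a symbol through the first table or RefSeq's gene table (GRCm38.p6).

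Depth was read from transcripts of at least 3000 bases that are alone in their gene, with lengths from GENCODE M21 limited to the authors' locus. Of the low values, 92.1% of 190 in the triple mutant and 93.6% of 202 in the control were whole multiples of a step within 10%, with a fragment length of 150 bases chosen to give the largest share. A floor of 3 fragments over 2 kb was 0.0263 FPKM in the triple mutant and 0.0309 in the control. Intervals are exact conditional (Clopper-Pearson) 95% intervals of a ratio of counts. Step search, ratios and intervals were tested on simulated data.

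The genes named were the 10 melanin genes, the targeted genes, up to 4 measured genes per list with the largest ratio either way, and the 5 nearest genes. Other pigment epithelium, melanocyte and lens markers and the overlapping genes were named after their values were seen. The melanin genes and all lists were chosen with earlier results of these data known. Stx13, Asip and Mfrp were not analysed here, and 2 other genes of the lists are not reported here. Alternatives were 2 other pseudocounts, 2 other filters, the second table, scaling by the median ratio, the highest transcript alone and 2 other size rules. Added after seeing the data were the count at or below 50% of the control and the genes sharing no exon with another gene. Computation used Python 3.11.15, pandas 2.3.3, numpy 2.4.6 and scipy 1.17.1.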

Additional observations from a re-analysis of the deposited data

How the results depend on the processing

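All 10 melanin genes kept a log2 ratio below 0 in each of the 50 combinations of gene and alternative computed for single genes, and 19 of these moved beyond counting error, all but 1 of them with another pseudocount. The count of 4 lower genes became 6 with a pseudocount of 0.1 FPKM or a size rule of 0.58. It became 3 in the second table, where Tyr lay at -0.98, and 3 without the genes that share exons with another gene. It fell to 2 (Dct and Pmel) with a pseudocount of 5 FPKM, with a filter of 5 FPKM and with a size rule of 2, and was 8 as the count at or below 50% of the control. The median log2 ratio of the measured melanin genes, -1.01, was -2.22 and -0.34 with pseudocounts of 0.1 and 5 FPKM, -0.74 with no filter on low values and -3.05 among the 2 genes of at least 5 FPKM. The pigment pathway lists had 0 genes lower in each setting and 2 higher, or 3 and 0 higher with pseudocounts of 0.1 and 5 FPKM. The medians of the other lists moved in 14 of 77 combinations of list and alternative. That of the pigment epithelium markers, -0.78, was -1.31 and -0.27 with pseudocounts of 0.1 and 5 FPKM and -0.47 with no filter or a filter of 5 FPKM, and that of choroid and sclera, -0.12, turned to 0.18 with the 5 FPKM filter. The neighbouring cell type lists had 25 genes lower, or 29 and 15 with those pseudocounts and 20 with the 5 FPKM filter. The first-start Mitf transcript alone gave a log2 ratio of -0.24, against -0.37 for the sum. Scaling to a common median ratio removed a log2 shift of -0.000566. Low fragment numbers limit Tyr, Mlana and Gpr143. No paired analysis was possible because each genotype had 1 library.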
